A study of Mus musculus with 4 samples.

Results

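The claudin family was followed through whole inguinal mammary gland of mice at postnatal day 10, on 2 arrays from Mt2-mmp(-/-) knockouts and 2 from Mt2-mmp(+/+) wild-type littermates. Mt2-mmp (gene symbol Mmp15) encodes a matrix metalloproteinase anchored in the cell membrane. The deletion was global, and both genotypes were on a congenic C57Bl/6J background. The labels call the arrays of a genotype biological replicates and do not say whether an array held the RNA of 1 animal or of a pool. Members were all probe sets whose only annotated symbol was Cldn1, Cldn3, Cldn4, Cldn5, Cldn7, Cldn8, Cldn10, Cldn11 or Cldn12. That rule found 12 probe sets of 9 genes, of 45037 probe sets and 17097 named genes in all. Cldn1, Cldn3 and Cldn12 had 2 probe sets each, called here the brighter and the dimmer one, and the other 6 genes had 1.

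Claudins are membrane proteins of the tight junction, the belt that seals the space between neighbouring epithelial or endothelial cells. Each cell type combines several of them, and the mixture sets how tight the seal is and which ions pass. In the mammary gland the luminal cells carry tight junctions, which close around the onset of lactation and keep milk components in the duct. Cldn5 is the main claudin of blood vessel endothelium, so in whole tissue it reports on vessels rather than on the ductal tree. All claudin values below are log2 values of a probe set on an array, as the authors deposited them, and a fold change is knockout over wild type. Levels of different probe sets are not set against each other, because each responds to its target with its own brightness.

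The bases upstream of 4 claudin genes are shown because these genes gave the contrasting patterns described below. Cldn1 varied most with the array, and both probe sets of Cldn3 were lower on the knockout arrays. Cldn4 differed between the arrays of a genotype and its genotypes overlapped, while Cldn5 was higher on the knockout arrays. Cldn3 and Cldn4 are also next to each other among the protein-coding genes of chromosome 5 in the RefSeq annotation. The sequences are the 250 bases before the RefSeq gene start in build GRCm38.p6, 5′ to 3′ on the gene's strand. They span chr16:26371840-26372089 (minus strand), chr5:134985964-134986213 (plus strand), chr5:134946935-134947184 (minus strand) and chr16:18776597-18776846 (plus strand). Capitals mark matches on either strand to GGGCGG (GC box), CACCTG (an E-box that Snail family repressors can bind), TGANTCA (AP-1) and AACNNGTT (Grhl).
Cldn1: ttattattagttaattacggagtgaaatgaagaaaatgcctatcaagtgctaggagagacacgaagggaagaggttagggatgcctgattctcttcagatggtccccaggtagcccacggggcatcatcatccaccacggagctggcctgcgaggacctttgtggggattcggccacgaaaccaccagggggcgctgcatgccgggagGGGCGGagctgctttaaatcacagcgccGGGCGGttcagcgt
Cldn3: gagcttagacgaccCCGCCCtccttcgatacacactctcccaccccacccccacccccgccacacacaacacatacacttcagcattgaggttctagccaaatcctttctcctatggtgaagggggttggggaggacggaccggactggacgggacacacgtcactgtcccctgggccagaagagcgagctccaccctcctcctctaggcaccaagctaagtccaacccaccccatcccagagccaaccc
Cldn4: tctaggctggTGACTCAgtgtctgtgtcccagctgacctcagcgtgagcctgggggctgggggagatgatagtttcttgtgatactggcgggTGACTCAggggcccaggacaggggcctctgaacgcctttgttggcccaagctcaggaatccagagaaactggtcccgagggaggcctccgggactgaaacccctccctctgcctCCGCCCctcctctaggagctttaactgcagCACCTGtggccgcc
Cldn5: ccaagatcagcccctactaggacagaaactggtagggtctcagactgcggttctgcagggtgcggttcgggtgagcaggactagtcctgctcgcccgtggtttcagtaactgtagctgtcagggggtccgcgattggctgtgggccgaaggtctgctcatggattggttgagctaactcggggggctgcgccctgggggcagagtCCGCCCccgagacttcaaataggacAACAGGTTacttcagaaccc
A GC box stood in each of these windows, with 2 in that of Cldn1, and 32.7% of all 32851 promoter windows of this length held one. The E-box letters were in the window of Cldn4, 14 bases before its start, and in 17.2% of all windows. Of the claudins with a window, 2 held these letters: Cldn4 and Cldn7, whose window is not shown. Cldn4 also had the AP-1 letters at 2 places, 240 and 158 bases before the start, which 6.75% of all windows had at least once. The Grhl letters were in the window of Cldn5 and in 3.64% of all windows, and overlapped no other match. Of the 9 claudins 8 were found in the promoter table, and these matches are letters in a window, not measured binding.

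The arrays differed in a respect that touches these genes. Hair follicle genes were high on knockout 1 and wild type 2 and low on knockout 2 and wild type 1. Tchh, trichohyalin of the inner root sheath, had log2 values of 10.74 and 3.49 on knockouts 1 and 2, against 4.03 and 10.37 on wild types 1 and 2. Krt25, an inner root sheath keratin, had 10.44 and 3.70 on the knockout arrays and 3.99 and 10.47 on the wild-type arrays. Of 21 listed epidermal and hair follicle markers 18 had a probe set, and the sum of their values on a linear scale was 5980 and 562 on knockouts 1 and 2, against 553 and 5170 on wild types 1 and 2. The epidermal markers Krt1, Lor and Flg stayed at or below 3.98 on every array, in the range of the nonspecific controls, of which all but 1 of 23 lay at or below 4.57. Krt10, another epidermal keratin, lay between 7.16 and 7.22 on all 4 arrays. Each genotype therefore had 1 array of either kind, and for each of the 12 claudin probe sets the difference is also given between the 2 arrays high in hair follicle genes (knockout 1 minus wild type 2) and between the 2 low ones (knockout 2 minus wild type 1). Across probe sets the arrays correlated between 0.995 and 0.997. The level of Mmp15 itself, for which no named probe set was found, was not analysed here.

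No claudin passed the test. Of the 12 probe sets 0 had an adjusted p under 0.05 by limma, and their adjusted p ran from 0.721 to 1.0. Over the whole array 2 of 45037 probe sets passed (0.00444%), those of Gadd45gip1 and Prdx2, named here after their values were seen. At an unadjusted p under 0.05 limma gave 1 of 12 claudin probe sets and 6.65% of all probe sets, or 3.17% of them with lower values in knockouts, as that claudin probe set had. The standard errors of the claudin fold changes ran from 0.0662 to 0.373 on the log2 scale, which is why the intervals below are of unequal width. With 2 arrays per genotype the smallest p an exact permutation test allows is 0.333. All p-values here rest on the spread between these samples, which may be technical, and on a variance that limma borrows from the other probe sets. The borrowed part weighs more, with 3.43 prior against 2 residual degrees of freedom. The values that follow therefore describe these 4 arrays.

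**Figure D1:**
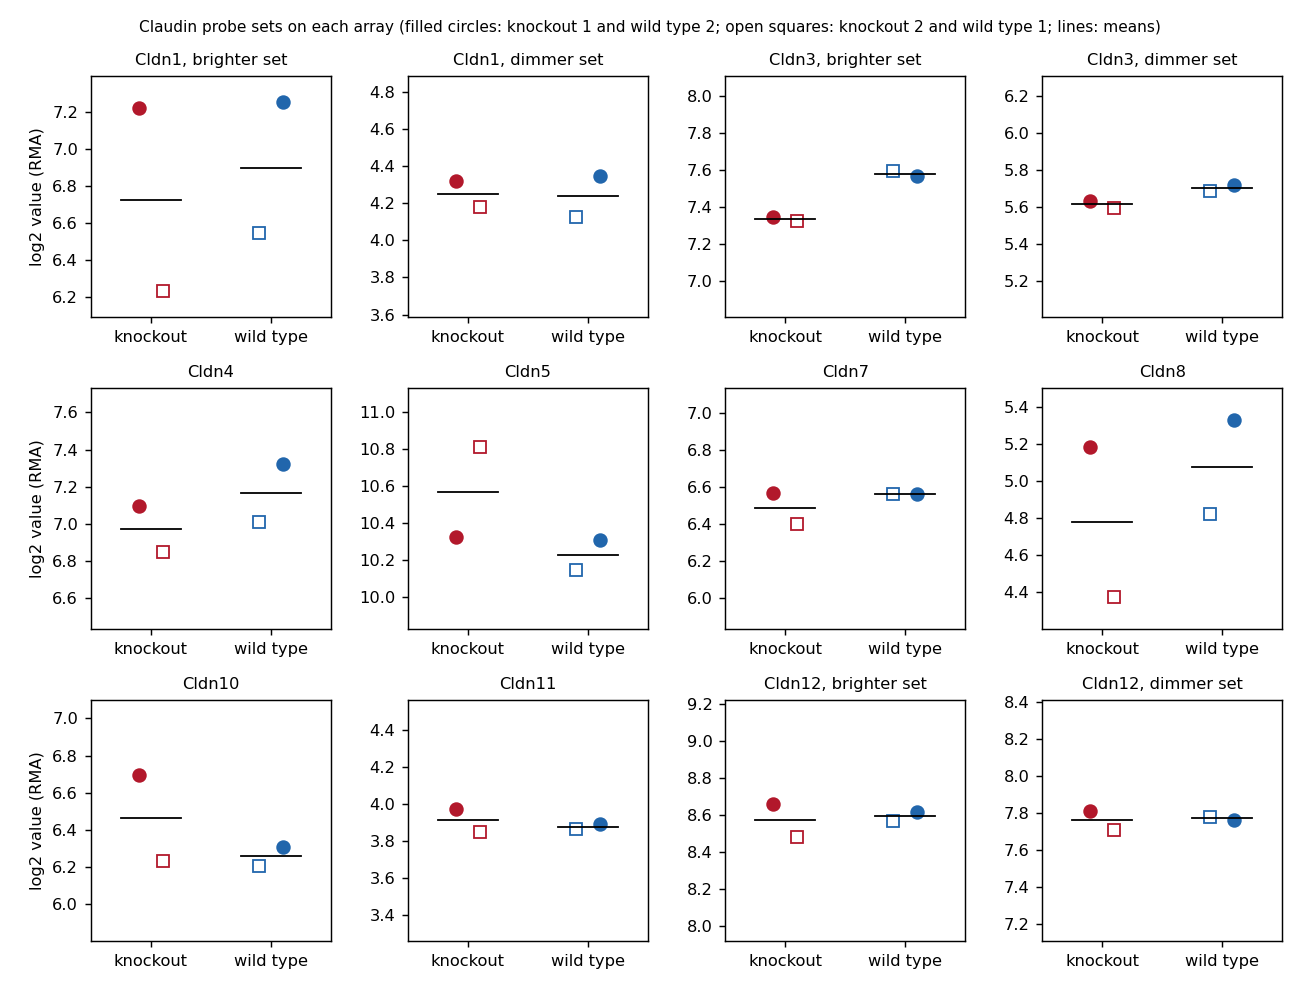
Log2 values (y axis, all panels spanning the same range of log2 units) of the 12 claudin probe sets by genotype (x axis, knockout left). Filled circles are knockout 1 and wild type 2, open squares knockout 2 and wild type 1, and lines are means of 2 arrays. Both Cldn3 panels separate the genotypes, while in Cldn1, Cldn4 and Cldn8 the circles lie above the squares.

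Both probe sets of Cldn3 were lower on both knockout arrays, in an array-wide background where such separation was about as common. Cldn3 is a sealing claudin of luminal epithelium and a receptor for an enterotoxin of Clostridium perfringens. Its brighter probe set, 1451701_PM_x_at, had log2 values of 7.35 and 7.32 on knockouts 1 and 2, against 7.59 and 7.57 on wild types 1 and 2. Both knockout arrays lay below both wild-type arrays, and the 2 arrays of each genotype lay within 0.03 of each other. The means were 7.34 ± 0.0165 on the knockout arrays and 7.58 ± 0.0185 on the wild-type arrays (SD, n = 2 arrays each). The log2 fold change was -0.24 (SE 0.0662, 95% interval -0.41 to -0.08, unadjusted p = 0.0123 and adjusted p = 0.721 by limma), or 1.18-fold lower in knockouts. It was -0.22 between the arrays high in hair follicle genes and -0.27 between the low ones, so neither kind of array carried it alone. The dimmer probe set, 1426332_PM_a_at, had 5.63 and 5.59 on the knockout arrays and 5.69 and 5.72 on the wild-type arrays, again without overlap. Its fold change was smaller, at -0.09 (SE 0.0673, adjusted p = 0.845 by limma), and was -0.09 between the high arrays and -0.09 between the low ones. The suffix x_at marks probe sets in which some probes also match other transcripts, so the 2 probe sets may not report the same transcripts. In whole tissue, fewer cells of a type and less of a transcript per cell cannot be told apart, for Cldn3 as for the claudins that follow. Non-overlap with knockouts lower was found in 18.6% of all probe sets and in 2 of 12 claudin probe sets, both of Cldn3, a share no higher than that of the whole array.

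Cldn4, the neighbour of Cldn3 and likewise a toxin receptor that seals epithelia, was also lower in knockouts between arrays of the same kind. Its log2 values (1418283_PM_at) were 7.10 and 6.85 on knockouts 1 and 2, against 7.01 and 7.32 on wild types 1 and 2. The genotypes overlapped, because knockout 1 lay above wild type 1. The fold change was -0.19 (SE 0.137, 95% interval -0.54 to 0.15, adjusted p = 0.834 by limma). Between the high arrays the difference was -0.22 and between the low arrays -0.17. Within a genotype the array of the high kind lay 0.25 above the other in knockouts and 0.31 above it in wild type, so the 2 arrays of a genotype differed more than the genotypes did. Without wild type 2 the fold change of Cldn4 was -0.04, without knockout 2 -0.068, and without wild type 1 -0.35.

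Cldn1 and Cldn8 differed more between the arrays of a genotype than between the genotypes. Cldn1 is needed for the water barrier of mouse epidermis, and Cldn8 forms barriers against cations in the kidney tubule. The brighter probe set of Cldn1, 1437932_PM_a_at, had log2 values of 7.22 and 6.24 on knockouts 1 and 2, against 6.55 and 7.25 on wild types 1 and 2. The difference between the high arrays was -0.03 and between the low arrays -0.31, whereas knockout 1 exceeded knockout 2 by 0.98 and wild type 2 exceeded wild type 1 by 0.71. The fold change of Cldn1 was -0.17 with a wide 95% interval of -1.11 to 0.76 (SE 0.373, adjusted p = 0.975 by limma). Leaving out knockout 2 turned it to 0.32 and leaving out wild type 2 to 0.18, whereas it stood at -0.66 without knockout 1 and at -0.53 without wild type 1. The dimmer probe set of Cldn1, 1450014_PM_at, lay at 4.32 and 4.18 on the knockout arrays and 4.13 and 4.35 on the wild-type arrays, within the range of the nonspecific controls, and had the same order of arrays. It differed by -0.03 between the high arrays and by 0.05 between the low ones.

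Cldn8 (1449091_PM_at) had log2 values of 5.18 and 4.38 on knockouts 1 and 2, against 4.82 and 5.33 on wild types 1 and 2. Knockout 1 and wild type 2 were the high arrays again, and the genotypes overlapped. The value on knockout 2 lay below the second highest nonspecific control of that array (4.52), so it is not above background, and the differences that use it are not exact. The knockout array was the lower one in both kinds, with a log2 difference of -0.14 between the high arrays and of -0.45 between the low ones. Its fold change was -0.29 (SE 0.296, 95% interval -1.04 to 0.45, adjusted p = 0.897 by limma), and it turned to 0.11 without knockout 2. Leaving out wild type 2 gave -0.042, leaving out knockout 1 gave -0.70 and leaving out wild type 1 gave -0.55. Among the protein-coding genes of chromosome 16 in the RefSeq annotation, Cldn8 lies between Cldn17 and the hair keratin-associated gene Krtap24-1.

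Cldn7 and Cldn10 showed neither pattern clearly. Cldn7, a claudin found in duct epithelia along the sides of the cells as well as at the junction, had log2 values (1448393_PM_at) of 6.57 and 6.40 on the knockout arrays, against 6.56 and 6.56 on the wild-type arrays. Knockout 2 was the low array, and the other 3 lay within 0.01 of each other. The fold change of Cldn7 was -0.08 (SE 0.0826, 95% interval -0.28 to 0.13, adjusted p = 0.905 by limma), and 0.0064 without knockout 2. It was 0.01 between the high arrays and -0.16 between the low ones. Cldn10, which forms ion channels of different selectivity depending on its first exon, had 6.70 and 6.23 on the knockout arrays and 6.20 and 6.31 on the wild-type arrays (1426147_PM_s_at). Here knockout 1 was the high array, and the difference was 0.39 between the high arrays and 0.03 between the low ones. Its fold change, 0.21 (SE 0.159, 95% interval -0.19 to 0.61, adjusted p = 0.849 by limma), was the only one of at least 0.1 in the upward direction among the epithelial claudins, and it turned to -0.024 without knockout 1 and stood at 0.44 without knockout 2. The suffix s_at marks probes shared by several transcripts, so the isoforms of Cldn10 were not told apart.

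Cldn12 and Cldn11, which are not confined to epithelium, had fold changes near 0. Cldn12 lacks the tail motif with which other claudins bind junction scaffolds, and is made in many tissues. Its brighter probe set, 1433781_PM_a_at, had log2 values of 8.66 and 8.48 on the knockout arrays and 8.57 and 8.62 on the wild-type arrays, and its dimmer one, 1433782_PM_at, had 7.81 and 7.71 on the knockout arrays and 7.78 and 7.76 on the wild-type arrays. The fold changes were -0.02 and -0.01, with 95% intervals of -0.24 to 0.19 and -0.19 to 0.17. Between the high arrays the brighter set differed by 0.04 and between the low ones by -0.09, and the dimmer set by 0.05 and -0.07. Cldn11, the claudin of myelin and of Sertoli cells, lay at 3.97 and 3.85 on the knockout arrays and 3.86 and 3.89 on the wild-type arrays (1416003_PM_at), within the range of the nonspecific controls. At that brightness a low level and no signal cannot be told apart, and its fold change was 0.03 (SE 0.0762), or 0.09 between the high arrays and -0.02 between the low ones.

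Cldn5, the endothelial claudin, lay higher in knockouts. Its log2 values (1417839_PM_at) were 10.33 and 10.81 on knockouts 1 and 2, against 10.15 and 10.31 on wild types 1 and 2. Both knockouts were above both wild types, but knockout 1 exceeded wild type 2 by only 0.02, and knockout 2 stood 0.49 above knockout 1. The log2 fold change was 0.34 (SE 0.169, 95% interval -0.08 to 0.77, adjusted p = 0.782 by limma), or 1.27-fold. Without knockout 2 the fold change of Cldn5 was 0.10, without knockout 1 it reached 0.58, and leaving out either wild-type array gave 0.26 or 0.42. Between the arrays low in hair follicle genes the difference was 0.67. Non-overlap with knockouts higher was found in 17.8% of all probe sets and in 1 of 12 claudin probe sets.

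**Figure D2:**
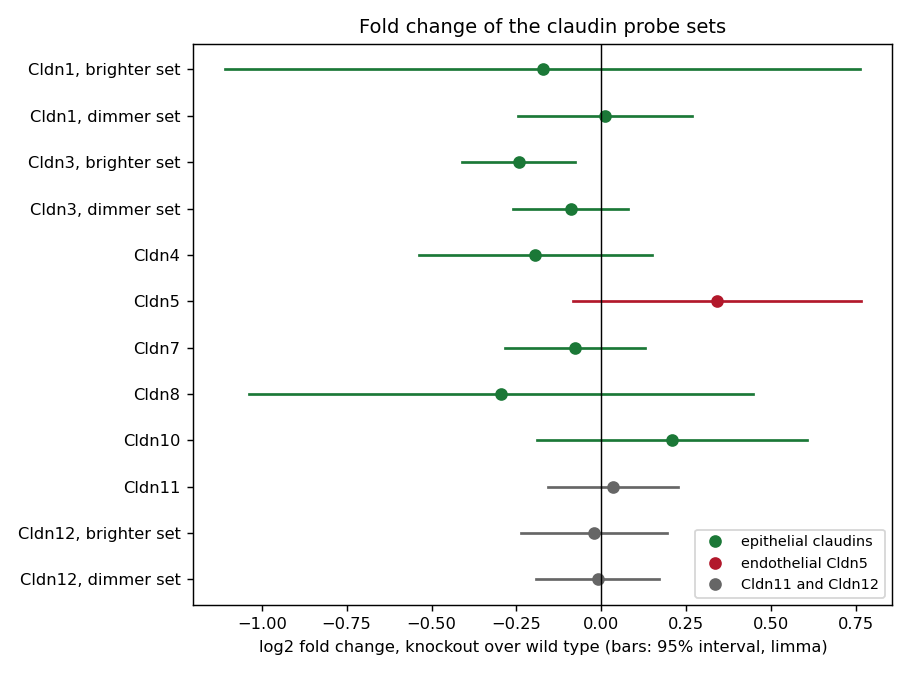
Log2 fold change, knockout over wild type (x axis), of each claudin probe set, with 95% intervals from limma on 2 arrays per genotype. The interval of the brighter Cldn3 probe set, -0.41 to -0.08, lies below 0, and the other 11 intervals include 0.

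Fold changes of the epithelial claudins were mostly below 0 and that of Cldn5 above it. Of the 8 probe sets of the 6 epithelial claudins (Cldn1, Cldn3, Cldn4, Cldn7, Cldn8 and Cldn10), 6 had a fold change below 0, against 50.7% of all probe sets, and their median was -0.131, against -0.001 over all probe sets. The median was 0.044 without knockout 2, -0.041 without wild type 2, -0.169 without wild type 1 and -0.208 without knockout 1, so its direction rested on knockout 2. Subtracting the value of Cldn5 on the same array gives a measure of unequal change that does not depend on the scaling of the array. For the brighter Cldn3 probe set this difference was -2.98 and -3.49 on knockouts 1 and 2, against -2.55 and -2.74 on wild types 1 and 2. The 2 genotypes did not overlap, with knockouts lower, in 4 of the 8 epithelial probe sets: both of Cldn3 and those of Cldn4 and Cldn7. The same held for 53.7% of all probe sets once the value of Cldn5 was subtracted, so the share among the epithelial claudins was near that of the whole array. For Cldn4 the values were -3.23 and -3.97 on the knockout arrays and -3.13 and -2.99 on the wild-type arrays. For Cldn7 they were -3.76 and -4.41 on the knockout arrays and -3.59 and -3.75 on the wild-type arrays. Cldn1, Cldn8 and Cldn10 overlapped. Relative to Cldn5 the fold changes of the epithelial claudins ran from -0.64 (Cldn8) to -0.13 (Cldn10), and all share the Cldn5 value of 0.34, which leaned on knockout 2.

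**Figure D3:**
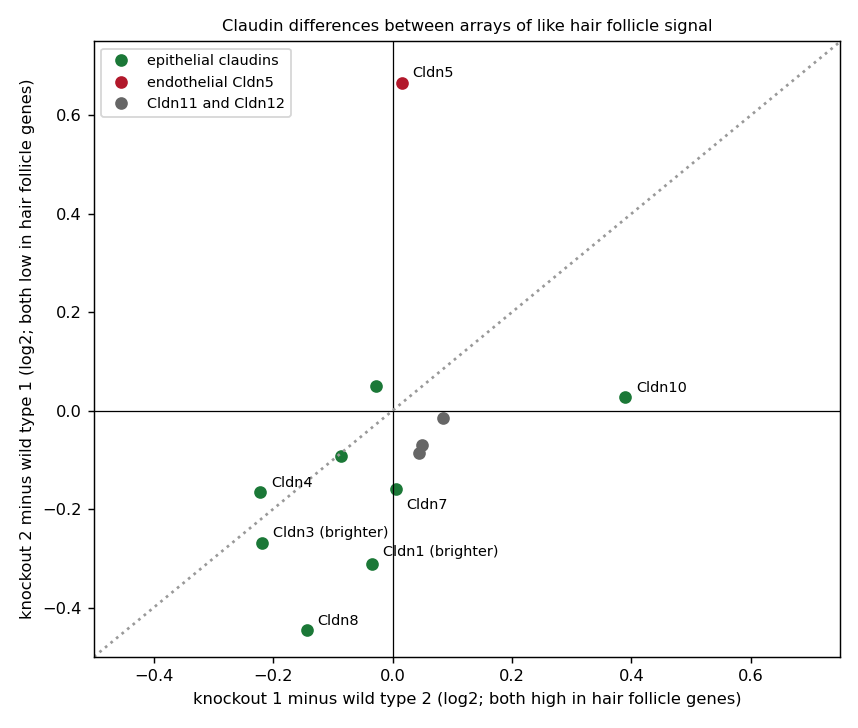
Difference in log2 value between the arrays high in hair follicle genes (knockout 1 minus wild type 2, x axis) and between the low ones (knockout 2 minus wild type 1, y axis), 1 point per claudin probe set. Cldn3 at -0.22 and -0.27 and Cldn4 at -0.22 and -0.17 lie near the dotted line of equal differences, while Cldn5 at 0.02 and 0.67 and Cldn10 at 0.39 and 0.03 lie far from it.

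The order of the arrays recurred across the family. In 8 of 12 claudin probe sets knockout 1 and wild type 2 both lay above knockout 2 and wild type 1, an order found in 14.9% of all probe sets. Cldn1 and Cldn8 had it with the widest gaps, and Cldn4 with a smaller one. In Cldn7, Cldn10, Cldn11 and the brighter Cldn12 probe set the lowest of the high arrays and the highest of the low arrays were 0.002 to 0.076 apart. Cldn3 and Cldn5 did not have this order. The part of the hair follicle genes in these differences was not tested. The genes most like a claudin over the 4 arrays were sought for Cldn1, Cldn5 and Cldn8, whose highest and lowest arrays differed by at least 0.5. Likeness was the root mean square difference of centred log2 values. Candidates were the 10390 (for Cldn8, 10391) named genes brighter than the median probe set. Nearest to Cldn1 were St14 (0.052), a membrane serine protease, Pkp1 (0.063), a desmosome plaque protein, and Esrp1 (0.076), an epithelial splicing regulator. Nearest to Cldn8 were Krtap3-1 (0.044), a keratin-associated protein of hair, Pkp1 (0.070) and Tfap2a (0.075), a transcription factor of skin and its appendages. Nearest to Cldn5 were Fry (0.023), Kank3 (0.024) and Sucnr1 (0.059), the succinate receptor. Kank3 had log2 values of 8.63 and 9.06 on knockouts 1 and 2, against 8.42 and 8.62 on wild types 1 and 2. It was picked for its likeness to Cldn5 on these arrays, so its high value on knockout 2 is no separate evidence. The genes named for Cldn1 and Cldn8 were picked in the same way. Their array order and the tissues they are known from are therefore no separate evidence either.

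**Figure D4:**
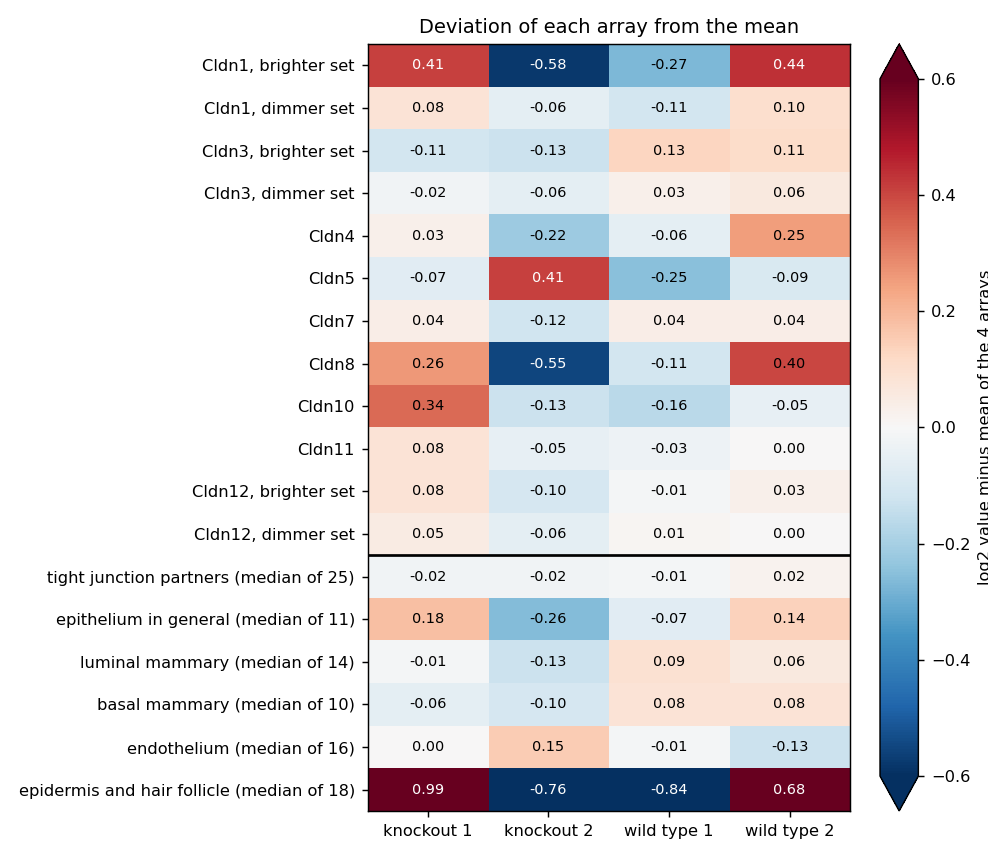
Log2 value of each array minus the mean of the 4 arrays, for the 12 claudin probe sets (above the line) and as the median over 6 gene lists (below it). Cldn1, Cldn4, Cldn8 and the brighter Cldn12 set share the signs of the epidermis and hair follicle list on all 4 arrays. The general epithelial list has the same signs. In the brighter Cldn12 set the deviations are small, from -0.10 to 0.08. Both Cldn3 sets share the signs of the luminal and basal lists.

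Fold changes of mammary epithelial markers were mostly below 0, like those of Cldn3. Epithelial keratins were measured on every array: the luminal keratin Krt8 lay between 9.01 and 9.47 and the basal keratin Krt14 between 7.87 and 8.22. Krt5, another basal keratin, had the array order of Cldn1, at 7.49 and 7.03 on knockouts 1 and 2, against 7.20 and 7.69 on wild types 1 and 2. The part of the hair follicle in the basal values was not tested. Of 14 luminal markers 11 had a fold change below 0, against 51.2% of genes, with a median of -0.166. Between the high arrays this median was -0.083 and between the low ones -0.206. The luminal genes of smallest p were Foxa1, a pioneer factor (-0.39), Krt8 (-0.33), Krt7, a simple epithelial keratin (-0.30), and Krt18, the partner of Krt8 (-0.20). Epcam, an adhesion molecule that binds Cldn7 directly, had 9.21 and 9.21 on the knockout arrays and 9.54 and 9.50 on the wild-type arrays, which put the log2 fold change at -0.31 (SE 0.0661, limma adjusted p = 0.697). As for Cldn3, the arrays of a genotype lay close together. Of 11 general epithelial markers, Epcam among them, 8 were below 0 (median -0.119), with Cdh1, the adherens junction cadherin, at -0.26, Grhl2, an epithelial transcription factor, at -0.12 and Prss8, a membrane protease, at 0.17. In 7 of these 11 the arrays had the order of Cldn1, against 14.9% of genes. All 10 measured basal markers were below 0, against 51.2% of genes, with a median of -0.202. Between the high arrays this median was -0.162 and between the low ones -0.21. Among them were Oxtr, the oxytocin receptor, at -0.36, Col17a1 at -0.29, Krt14 at -0.27 and Lama3 at -0.22. Others lay near 0: Myh11 at -0.06, Acta2 at -0.04, Itgb4 at -0.03 and Itga6 at -0.01. No basal marker passed the threshold by limma. Summed on a linear scale, the luminal list reached 5000 and 4720 on knockouts 1 and 2, against 5460 and 5140 on wild types 1 and 2. The general epithelial list reached 2250 and 1830 on knockouts 1 and 2, against 2160 and 2470 on wild types 1 and 2, which is the array order of Cldn1. The part of epithelial content in the claudin values was not tested.

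Endothelial markers lay on the side of Cldn5. Of 16 markers 14 had a fold change above 0, against 48.8% of genes, with a median of 0.15, and in 7 both knockout arrays lay above both wild-type arrays, against 18.2% of genes. Tie1, an endothelial receptor kinase, had a fold change of 0.50, Tek, the angiopoietin receptor, 0.18, Sox17, an arterial transcription factor, 0.18 and Flt1, a receptor of vascular growth factors, 0.17. None passed the threshold by limma. On knockout 2, where Cldn5 was 0.41 above its mean, the endothelial list had a median of 0.15 above the mean. Summed on a linear scale the list reached 9140 and 10500 on knockouts 1 and 2, against 9180 and 8600 on wild types 1 and 2, so knockout 1 was level with wild type 1. Its part in the Cldn5 difference was not tested.

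The proteins that work with claudins in the junction showed no shared direction. Of 25 measured partner genes (28 listed) 14 were below 0 and 11 above, with a median of -0.026, and 0 passed by limma over all probe sets. The scaffold Tjp1, which ties claudins to actin, had log2 values of 10.87 and 10.97 on the knockout arrays and 10.87 and 10.88 on the wild-type arrays (fold change 0.05). The junction membrane proteins occludin (Ocln, -0.25) and tricellulin (Marveld2, -0.25), which seals the points where cells meet in threes, had the array order of Cldn1. Ocln lay at 5.62 and 5.22 on knockouts 1 and 2, against 5.58 and 5.77 on wild types 1 and 2. Jam2 and Jam3, adhesion molecules also made by endothelium, lay higher, at 0.29 (SE 0.091, unadjusted p = 0.0217 and adjusted p = 0.724 by limma) and 0.19. Jam2 had 7.65 and 7.76 on the knockout arrays and 7.32 and 7.50 on the wild-type arrays. Esam, an endothelial adhesion molecule that is also on the endothelial list, had 0.14. The polarity and scaffold genes, which lie under the membrane, had values on both sides of 0, with most of the larger ones below it. Tjp3 lay at -0.24, Magi1 at -0.23, Cgnl1 at -0.195, Mpp5 at -0.17, Cgn at -0.16, Prkci at -0.13 and Pard3 at -0.13. Amotl1 lay at -0.03. Mpdz, whose knockout arrays both lay above the wild-type arrays, was at 0.22. Tjp1, Magi3, Amot, Pard6b and Patj were also above 0, at 0.05 or less. The genotypes did not overlap, with knockouts lower, in 7 of 25 partners against 19.4% of genes, and with knockouts higher in 3 against 18.2%.

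**Figure D5:**
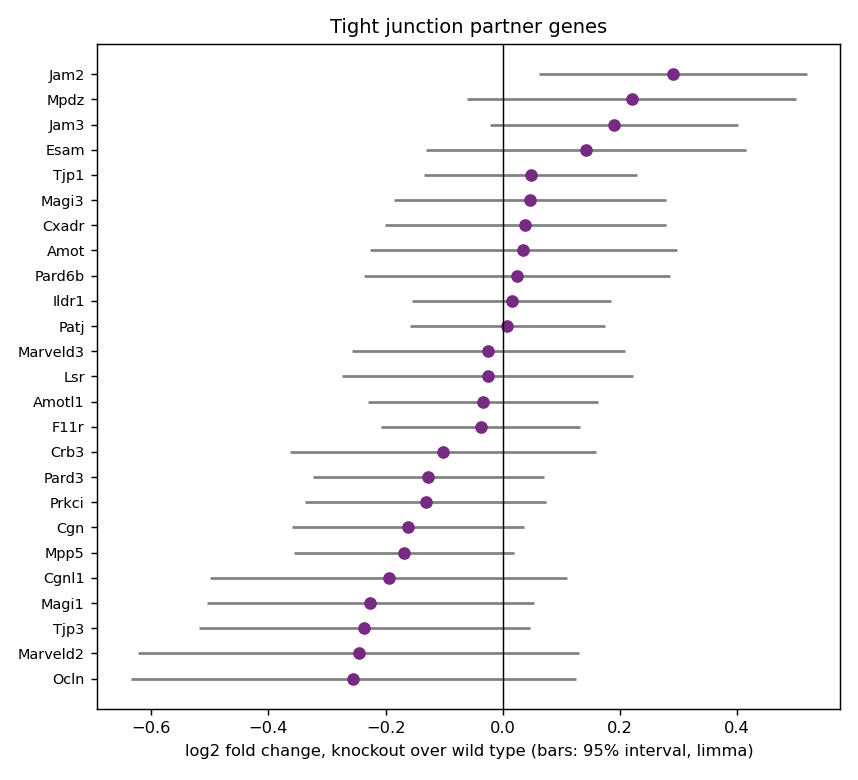
Log2 fold change, knockout over wild type (x axis), of the 25 measured tight junction partner genes, with 95% intervals from limma on 2 arrays per genotype. Jam2, at 0.29, is the gene whose interval lies wholly above 0, and no interval lies wholly below it.

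The other claudins with a probe set of their own comprised 17 probe sets of 15 genes (Cldn2, Cldn6, Cldn9, Cldn13 to Cldn16, Cldn18, Cldn19, Cldn22, Cldn23, Cldn34b2, Cldn34c1, Cldn34c4 and Cldn34d), with fold changes of -0.13 to 0.16 and a median of 0.036. None passed by limma (adjusted p of 0.811 to 1.0). Cldn15, a channel-forming claudin of the intestine, had 7.65 and 8.06 on the knockout arrays and 7.70 and 7.86 on the wild-type arrays. Cldn2, a cation channel of leaky epithelia, had 5.30 and 5.32 on the knockout arrays and 5.29 and 5.09 on the wild-type arrays on its brighter probe set. Cldn6, a claudin of embryonic epithelia, had 4.21 and 4.27 on the knockout arrays and 4.43 and 4.31 on the wild-type arrays, a fold change of -0.13 at values in the range of the nonspecific controls.

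Markers of the remaining cell types gave the following. Over all genes 48.8% had a fold change above 0. Among adipocyte genes 5 of 6 were above 0 (median 0.895), with Lep at 2.19, Ucp1 at 1.64, Dio2 at 1.03 and Cidea at 0.76. The remaining adipocyte genes lay near 0, Fabp4 at 0.02 and Adipoq at -0.04, so the list did not move as a whole. Skeletal muscle had 6 of 7 above 0 (median 0.282), with Myh4 at 0.69, Myl1 at 0.29, Ckm at 0.28 and Mb at -0.12. That median leaned on knockout 2: it was -0.115 between the high arrays and 0.425 between the low ones, and Myh4 had 3.38 and 5.28 on knockouts 1 and 2, against 3.70 and 3.59 on wild types 1 and 2. Of 5 Schwann cell and nerve genes 2 were above 0 (median -0.012), with S100b at 0.49, Mbp at 0.02, Mag at -0.08 and Ncam1 at -0.11. Lymphocyte genes had 4 of 7 above 0 (median 0.006), with Ms4a1 at 0.76, Cd79b at 0.50, Cd3g at 0.14 and Cd3e at -0.10. The epidermis and hair follicle list, in which 15 of 18 genes had the array order of Cldn1, had a median of 0.061, with Krt34 at 0.39, Krt1 at 0.06, Lor at 0.06 and Flg at -0.03. In the 10 lists 0 genes passed by limma over all probe sets, where 0.00585% of genes passed, and at an unadjusted p under 0.05 limma gave 4 of 6 adipocyte, 3 of 14 luminal, 3 of 10 basal and 2 of 7 lymphocyte genes, 1 gene each of the tight junction partner, general epithelial, endothelial and Schwann cell lists, and 0 of the skeletal muscle and epidermal lists, against 7.36% of all genes.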

How the data were processed

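Each sample gave 200 ng of total RNA for labelling and was hybridized to 1 Affymetrix 3′ IVT mouse array. The authors deposited log2 values, 1 per probe set and array, and the submitters' processing notes name affy and RMA without a version. RMA forces the arrays to one distribution, so a shift common to most genes would not be seen, and it compresses differences of dim genes. Of 45141 probe sets 104 were array controls and were left out. The platform annotation gave 1 symbol for 28898 probe sets, several for 551 and none listed for 15588.

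Knockout was compared with wild type on all 45037 probe sets in R 4.3.3 with limma 3.58.1 (lmFit, then eBayes), in a two-sided test with genotype as the only term. Benjamini-Hochberg adjustment ran over all of them. The threshold was an adjusted p of 0.05. Each fit had 2 residual and 3.43 prior degrees of freedom, and the median standard error was 0.0808. The number of arrays limits the precision. For gene lists the probe set with the highest mean represents a gene. Named were all claudin probe sets, the 4 genes of smallest p in each of 10 lists, and 3 genes nearest in pattern to each claudin that varied by at least 0.5. Genes given in addition (Ocln, Marveld2, Tjp1, Esam, Mpdz, Magi1, Magi3, Cgn, Cgnl1, Prkci, Pard3, Pard6b, Patj, Amot, Amotl1, Tchh, Krt25, Krt10, Krt5, Trp63, Myh11, Acta2, Itgb4, Itga6, Fabp4, Adipoq) were chosen after their values were seen. The members and lists were chosen with earlier results of these data known. Deviations from the genotype means correlated at -0.295 between arrays of one replicate number, which does not show pairing. The fit was tested on simulated data. The alternatives were other scalings, gene summaries, variance models, a replicate block and each array left out.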

Additional observations from a re-analysis of the deposited data

How the results depend on the processing

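The count of 0 claudin probe sets past the threshold held under all 12 alternatives and under 1 added after seeing the data. Over all probe sets the 2 calls by limma became 5 with quantile normalization, median centring, a filter for brighter probe sets, robust variances or an intensity trend, 1 with the brightest probe set per gene, 0 with the mean of the probe sets, 0 with the replicate block (3131 at an unadjusted p under 0.05 by limma), and 0 to 5 with an array left out (5 without wild type 1, otherwise 0). The labels do not say whether replicate numbers pair the arrays, and the correlation of deviations given above does not show it. With the replicate block Cldn5 had 0.34 (adjusted p = 0.714 by limma) and the brighter Cldn3 probe set -0.24 (adjusted p = 0.714 by limma). A crossed pairing of knockout 1 with wild type 2, the added alternative, called 0 probe sets and 0 claudins, with 2558 and 2 at an unadjusted p under 0.05 by limma. With 1 array left out the epithelial claudin median ran from -0.208 to 0.044, Cldn5 from 0.10 to 0.58 and the tight junction median from -0.077 to -0.009. Signs turned only with an array left out: for the epithelial median (0.044 without knockout 2); without knockout 1 for the dimmer Cldn1 set (-0.059), Cldn10 (-0.024) and Cldn11 (-0.028); without knockout 2 for the brighter Cldn1 set (0.32), Cldn7 (0.0064), Cldn8 (0.11) and Cldn12 (0.067 and 0.040); without wild type 1 for the dimmer Cldn1 set (-0.098); and without wild type 2 for the brighter Cldn1 set (0.18) and the brighter Cldn12 set (0.0021). Over the 4 fits with an array left out, these probe sets ran from -0.66 to 0.32 (brighter Cldn1), -0.098 to 0.12 (dimmer Cldn1), -0.16 to 0.0064 (Cldn7), -0.70 to 0.11 (Cldn8), -0.024 to 0.44 (Cldn10), -0.028 to 0.098 (Cldn11), -0.11 to 0.067 (brighter Cldn12) and -0.061 to 0.040 (dimmer Cldn12). A lone array is there taken to vary like the other genotype. The brighter Cldn3 set kept its sign in these settings, at -0.26 to -0.23. With the mean of the probe sets per gene, Cldn3 had -0.17 (adjusted p = 0.687 by limma). Probe sets below the brightness filter, and the dimmer sets where a gene was summarised, gave no value.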
